A study of Mus musculus with 12 samples.

Results

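The response to dexamethasone (dex), a synthetic glucocorticoid, was compared between germ cells and somatic cells of the fetal mouse ovary. The measure was the log2 fold change of dex against saline in germ cells minus the same change in somatic cells, so that a negative difference means a lower response in germ cells. All 12 libraries of the series entered the comparison, 3 for each of 4 groups. All embryos carried the Tg(Pou5f1-EGFP)2Mnn transgene, in which a Pou5f1 promoter drives a green fluorescent protein (GFP). Dams received dex by intraperitoneal injection at 10 µg per g body weight, or the same volume of saline, on 4 successive days from embryonic day E12.5 to E15.5, and female fetuses were dissected at E15.5. GFP-positive cells were sorted as germ cells and GFP-negative cells as somatic cells, and both carried the same treatment of the dam. Each library was poly(A)-selected RNA from ovaries pooled over several litters, so the p-values below measure the spread between such pools.

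The glucocorticoid receptor is a hormone-bound transcription factor. On binding its ligand it enters the nucleus and activates genes such as Fkbp5, whose product in turn restrains the receptor. In the fetal ovary the germ cells are entering meiosis at this age, while the somatic fraction holds future granulosa cells, stroma, vessels and resident macrophages.

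Library totals lay between 14658503 and 18245507 counts, and 3 counts, taken here as the detection floor, equalled 0.169 to 0.201 CPM, the count scaled to the library total. The sorted fractions were checked with 16 germ cell markers. Their median level in the somatic libraries was 0.12% to 0.439% of the saline germ cell level in the saline group and 0.129% to 0.938% in the dex group. In the germ cell libraries, 16 stromal markers had a median of 0.824% to 1.57% of the saline somatic level, and 16 pregranulosa markers 2.9% to 10.4%, the highest in dex germ cell replicate 2. In a bulk library, fewer cells of a type and less RNA in each cell cannot be told apart. Of the receptor gene itself, Nr3c1, the germ cell libraries held 153 to 166 CPM in saline and 152 to 162 CPM in dex, and the somatic libraries 79.9 to 91.5 CPM and 65.2 to 84.1 CPM. These ranges overlap between treatments in both cell types, and the difference of responses was 0.14 (SE 0.12, edgeR adjusted p = 0.639).

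The somatic cells accounted for most of the differences that could be assigned to a cell type. Of 19390 genes tested, 314 (1.62%) differed in response, 95 (0.49%) toward germ cells and 219 (1.13%) toward somatic cells (edgeR quasi-likelihood test, Benjamini-Hochberg adjusted p of at most 0.05). In the same fit 803 genes (4.14%) changed with dex in somatic cells, 524 of them upward, and 64 genes (0.33%) changed in germ cells, 43 of them upward. Each called difference was then placed by which dex effect had passed the test: only the somatic one in 203 genes, only the germ cell one in 27, both in the same direction in 2, both in opposite directions in 0, and neither in 82. This placement uses the same libraries as the test and is a description. Among the 203 somatic-side genes, 149 rose and 54 fell in somatic cells, with a median change of 0.74 and -0.75 against medians of -0.11 and 0.19 in germ cells. Leaving out single libraries moved the total between 143, without saline somatic replicate 3, and 383, without dex germ cell replicate 1. In the latter fit the balance of directions turned, with 204 genes higher and 179 lower in germ cells, and without a low-count filter it was 351 against 376.

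**Figure D1:**
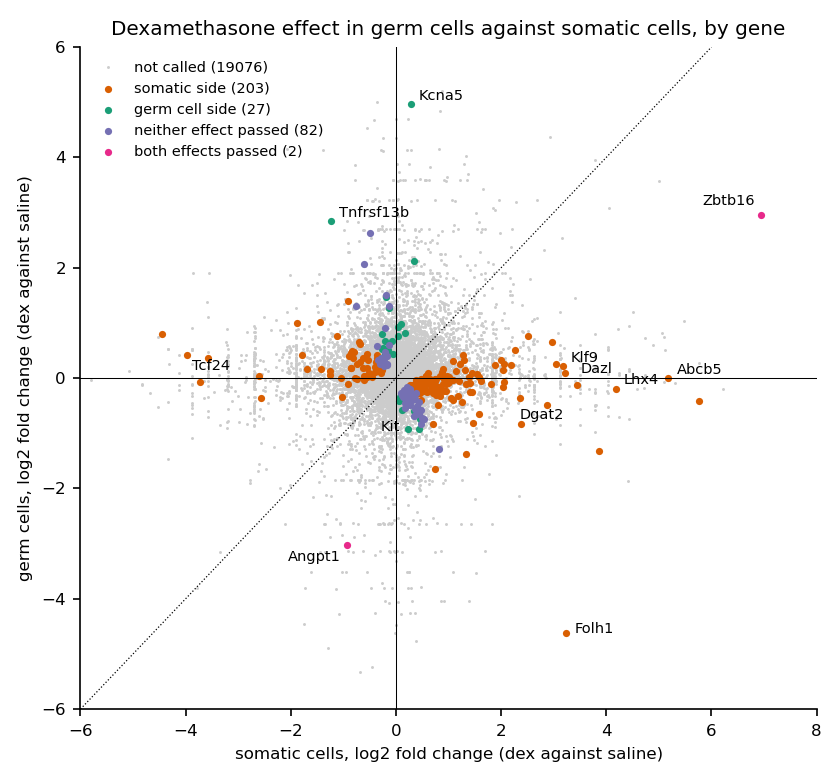
Log2 fold change of dex against saline in somatic cells (horizontal axis) and germ cells (vertical axis) for each of 19390 genes, with the 314 called differences coloured by the cell type whose own effect passed the test. Most of the 203 somatic-side genes spread along the horizontal axis close to 0 on the germ cell axis, the 27 germ cell-side genes spread vertically, and most of the 82 genes with neither effect called lie near the centre, all with opposite signs. The dotted line marks equal responses, and 1 gene lies outside the axes.

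Of the 53 gene lists examined, 37 held at least 1 called gene and 16 held none, and 231 of the 314 called genes were in no list. Cytosolic ribosomal protein genes held the most called members, 15, followed by receptor target genes and solute carriers with 10 each. Of 37 receptor targets tested, 10 (27%) were called, and of 85 ribosomal protein genes, 15 (17.6%), beside 1.62% of all genes. Lists with no called gene included 43 collagens, 55 interferon-inducible genes, 36 chemokines and their receptors, 50 histones, 35 HOX genes, 21 steroid synthesis genes and 18 endothelial markers. Transcription factor genes, as annotated in the table, had 26 of 1199 called (2.17%), 21 of them on the somatic side.

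**Figure D2:**
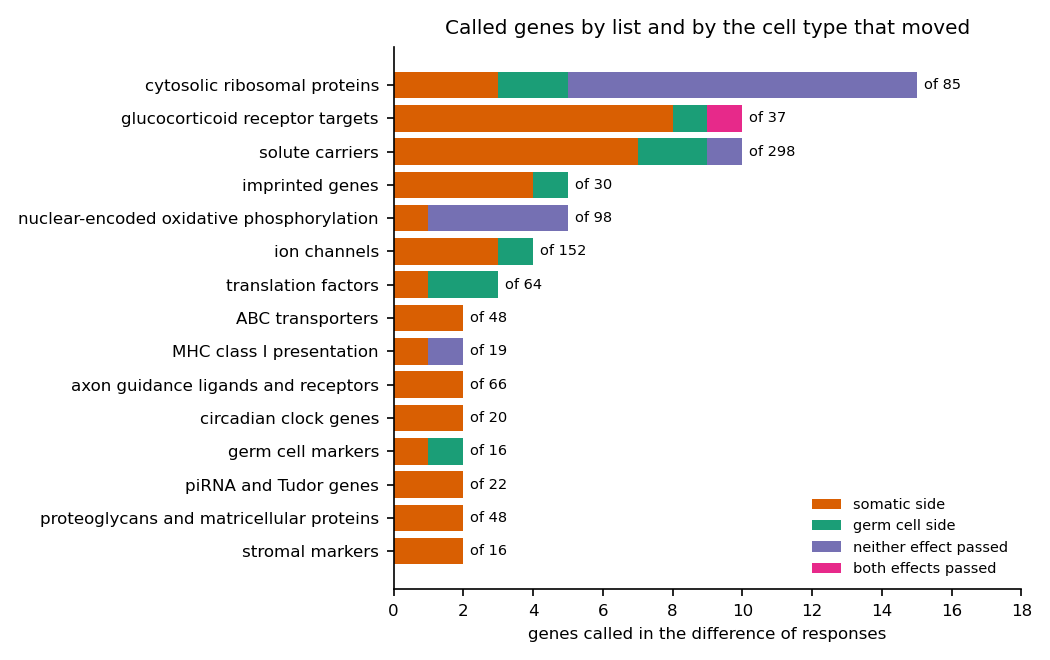
Number of genes called in the difference of responses for each list with at least 2 called genes, split by the cell type whose own dex effect passed the test. The figure at the end of each bar gives the number of list members tested. Somatic-side genes make up 8 of 10 called receptor targets, while 10 of 15 called ribosomal protein genes had neither effect called.

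The receptor target list moved further in somatic cells than in germ cells for part of its members. Its median dex effect was 0.90 for somatic cells against 0.41 for germ cells, and its median difference was -0.38, beside 0.01 for all genes tested. In somatic cells 21 of the 37 members rose and none fell, beside 524 and 279 of all 19390 genes. In germ cells 5 members rose and none fell, beside 43 and 21 of all genes. Called differences were lower in germ cells for 9 members and higher for 1, Nfkbia.

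Klf9 (chromosome 19, 23141226 to 23166911, mm10), a Krüppel-like transcription factor, showed the contrast in every library. It stood at 3.17, 4.37 and 4.51 CPM in saline and 4.49, 4.98 and 4.61 CPM in dex germ cells, and at 9.37, 7.54 and 9.46 CPM in saline and 86.1, 84.8 and 66.4 CPM in dex somatic cells. The somatic groups were far apart, a rise of 8.99-fold in the means, while the germ cell groups overlapped. The difference was -2.95 (SE 0.23, edgeR adjusted p = 1.6e-06). Its relative Klf15 (chromosome 6, 90462576 to 90475238), a regulator of amino acid and glucose metabolism, was the more abundant in saline germ cells, at 8.71 ± 1.41 CPM against 1.67 ± 0.218 CPM in saline somatic cells (SD, n = 3). After dex the somatic level was 13.8 ± 0.352 CPM and the germ cell level 10.4 ± 1.44 CPM, a difference of responses of -2.78 (SE 0.27, edgeR adjusted p = 2.37e-05). The Krüppel-like genes Klf13 and Klf5, chosen after their values were seen, rose in somatic cells, with differences of -0.87 (SE 0.12, edgeR adjusted p = 0.0011) and -0.99 (SE 0.18, edgeR adjusted p = 0.00772).

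The other called targets on the somatic side have varied functions. Cebpd, a transcription factor of fat cell formation, went from 16 ± 1.11 to 76.7 ± 11.5 CPM in somatic cells (SD, n = 3). Cdkn1c, which encodes the cell cycle inhibitor p57, went from 603 ± 27.8 to 1125 ± 22 CPM, and its 3 germ cell values were 71.9, 81.8 and 79.9 CPM in saline and 69.1, 76.9 and 71.3 CPM in dex. Errfi1, a brake on epidermal growth factor receptors, went from 65.9 ± 6.95 to 130 ± 9.46 CPM in somatic cells and had a mean of 234 CPM in both germ cell groups. For these 3 genes each dex somatic library lay above each saline somatic library. Glul, glutamine synthetase, had a difference of -0.93 (SE 0.11, edgeR adjusted p = 0.000137). Fkbp5 and Tsc22d3, the latter an anti-inflammatory leucine zipper protein, had differences of -0.97 and -1.13. For Fkbp5 and Cebpd each dex germ cell library also lay above each saline germ cell library. These germ cell rises of 1.25-fold and 1.43-fold did not pass (edgeR adjusted p = 0.131 and 0.222). The saline somatic mean of Tsc22d3 was 16.9% of the saline germ cell mean, and after dex the somatic mean was 37.1% of the germ cell mean.

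Not every target differed between the cell types. Per1, a core clock gene, rose in both, by 1.69 (SE 0.13) in the somatic and 1.90 (SE 0.15) in the germ cell libraries, and the difference of 0.21 (SE 0.20) was not called (edgeR adjusted p = 0.664). Hif3a, a hypoxia-inducible factor subunit, held 7.69, 7.4 and 7.54 CPM in saline and 16.6, 22.2 and 18.4 CPM in dex germ cells, and 182, 186 and 170 CPM in saline and 515, 504 and 462 CPM in dex somatic cells. The groups were separate in both cell types, and the difference was -0.12 (SE 0.14, edgeR adjusted p = 0.732). Ddit4, an inhibitor of mTOR signalling, also rose in both, with a difference of 0.21 (SE 0.19, edgeR adjusted p = 0.644). Hif3a and Ddit4 were chosen after their values were seen.

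Nfkbia was the one target called in the other direction. It encodes the inhibitor of NF-kB that is itself induced by glucocorticoids. Its germ cell values were 18.7, 18.9 and 21.2 CPM in saline and 39, 39.8 and 37 CPM in dex, while the somatic values were 85.5, 98 and 101 CPM in saline and 97.2, 98.9 and 109 CPM in dex. Only the germ cell groups were separate, and the difference was 0.88 (SE 0.12, edgeR adjusted p = 0.000865). Nfkbia lies on chromosome 12, 55489410 to 55492647.

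Zbtb16 and Angpt1 were the only called differences in which both dex effects had passed. Zbtb16, a zinc finger transcription factor, rose in both. Its germ cell values were 0.194, 0.699 and 0.457 CPM in saline and 1.94, 4.4 and 4.37 CPM in dex, a change of 2.95 (edgeR adjusted p = 0.00533). The somatic values were 0.252, 0.516 and 0.91 CPM in saline and 76.8, 79 and 54.5 CPM in dex, a change of 6.94. Saline levels of Zbtb16 were low in both cell types, so the sizes of the rises and of their difference are uncertain. The mean in dex germ cells was 5.09% of that in dex somatic cells. Its difference of -3.99 was called in 11 of 12 fits that left out a library and was lost without saline germ cell replicate 2 (edgeR adjusted p = 0.0719). Angpt1, the angiopoietin that stabilises vessels, fell in both. Its values were 1.36, 1.17 and 2.23 CPM in saline and 0.201, 0.259 and 0.117 CPM in dex germ cells, and 17.4, 20.6 and 19.3 CPM in saline and 11.4, 10.4 and 8.09 CPM in dex somatic cells. The germ cell fall was the larger, with a difference of -2.08 (SE 0.49, edgeR adjusted p = 0.0393), a call lost in 9 of 12 fits that left out a library. The dex germ cell values of Angpt1 lay near the floor, so the size of this fall is uncertain. Its saline germ cell mean was 8.29% of the saline somatic mean. Its antagonist Angpt2, chosen after its values were seen, had a somatic level that rose from 8.6 ± 0.749 to 15 ± 1.37 CPM (SD, n = 3), with a difference of -1.29 (SE 0.29, edgeR adjusted p = 0.0334).

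The clock genes split within a family. Per2 (chromosome 1, 91415982 to 91459324) held 12, 10.8 and 9.37 CPM in saline and 12.7, 13.3 and 11.8 CPM in dex germ cells, and 12.8, 13.7 and 12.1 CPM in saline and 67.3, 58.7 and 50 CPM in dex somatic cells. Saline levels of Per2 were alike in both cell types, and only the somatic dex libraries stood apart. Its difference was -1.95 (SE 0.19, edgeR adjusted p = 2.37e-05), unlike that of Per1. Hlf, a clock output factor, rose 2.72-fold in somatic cells, to 34.1 ± 3.45 CPM, while its germ cell mean went from 15.3 ± 1.36 to 12.9 ± 0.569 CPM without passing the test (SD, n = 3), a difference of -1.69 (SE 0.17, edgeR adjusted p = 4.59e-05). These were the 2 called genes of 20 clock genes tested (10%, beside 1.62% of all genes). Clock itself had a difference of 0.11 (SE 0.11, edgeR adjusted p = 0.71).

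The promoters of the called genes were searched for the palindromic receptor binding motif, because receptor targets were among the genes that differed. The motif was written as GNACANNNTGTNC, whose form is the same on both strands, and the windows were the 250 bases before and 50 bases after each RefSeq transcript start (GRCm38.p6). Of the 314 called genes, 232 had such a window. The motif was present in 3 of 142 promoters of genes that rose on the somatic side (2.11%), in 0 of 56 of those that fell, in 1 of 22 of genes that rose on the germ cell side (4.55%), in 0 of 9 of those that fell, and in 0 of 70 of genes with neither effect called. It was present in 60 of 16536 promoters of all genes tested (0.363%) and in 156 of all 32851 promoters of the table (0.475%). The shorter core ACANNNTGT was present in 6.34% of promoters of somatic-side rises, 1.79% of somatic-side falls and 4.55% of germ cell-side rises. It was present in 0 of 9 promoters of germ cell-side falls and 7.14% of those with neither effect called. Its share was 4.64% for all genes tested and 6.85% for all promoters of the table. The 4 sites of the full motif are shown with the motif in capitals and 8 flanking bases on each side, in the direction of transcription. A match is a description of these letters and not evidence of binding.
Abcb5, chr12:118966510-118966538, minus strand: catatacgGAACACTGTGTGCtttacatg
Eml1, chr12:108423962-108423990, plus strand: ttttatcaGAACATGATGTGCgataattc
Folh1, chr7:86776042-86776070, minus strand: ttttctgaGTACAGGCTGTACtatttggc
Kcna5, chr6:126535594-126535622, minus strand: cgctcctgGTACAACCTGTTCctcgctcc

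The 4 genes, which were named for the motif after their values were seen or by the naming rule, fell on both sides, with Abcb5, Eml1 and Folh1 on the somatic and Kcna5 on the germ cell side. Abcb5, an ATP-driven drug transporter, was at or under the floor in all saline somatic libraries and at 1.81, 2.08 and 1.43 CPM in dex somatic libraries, at least 9.44-fold higher. In germ cells it was at 18.7 ± 1.51 and 18.8 ± 4.2 CPM (SD, n = 3). Folh1, a folate hydrolase, held 0.377, 1.03 and 0.364 CPM in saline and 5.56, 7.1 and 4.04 CPM in dex somatic cells, and its germ cell values did not exceed 0.323 CPM. The fitted difference of -7.85 (SE 1.66, edgeR adjusted p = 0.028) therefore rests on germ cell libraries near or under the floor, and 8 of 12 fits without a library lost it. Eml1, which binds microtubules, had a difference of -0.56.

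Single genes of lipid, drug and insulin metabolism rose in somatic cells. Dgat2 (chromosome 7, 99153658 to 99182719), which makes the last step of triglyceride synthesis, held 54.7, 59 and 54.2 CPM in saline and 43.5, 40.8 and 46.6 CPM in dex germ cells, and 11.3, 10.6 and 13 CPM in saline and 60.5, 63.7 and 54.6 CPM in dex somatic cells. The germ cell values were separate and lower after dex without passing the test (-0.36, edgeR adjusted p = 0.111), and the somatic values rose past the germ cell level. The difference was -2.72 (SE 0.14, edgeR adjusted p = 4.35e-09). Dgat2 was the single called gene of 43 in lipid storage and oxidation (2.33%, beside 1.62% of all genes). Sult1a1, a sulphotransferase that conjugates phenols, had a somatic level that rose from 5.02 ± 1.02 to 39.5 ± 5.71 CPM (SD, n = 3), a difference of -2.31 (SE 0.38, edgeR adjusted p = 0.00446). The insulin receptor gene Insr rose less, with a difference of -0.61 (SE 0.15, edgeR adjusted p = 0.0443) that was lost in 10 of 12 fits without a library. The phosphoinositide kinase subunit Pik3r1 and the transcription factor Foxo3, both in the insulin pathway and chosen after their values were seen, rose in somatic cells with differences of -0.80 each (edgeR adjusted p = 0.00234 and 0.00276).

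Of 298 solute carriers, 10 (3.36%) were called, 5 in each direction, beside 1.62% of all genes. The count was 6 without saline germ cell replicate 3, dex somatic replicate 2 or saline somatic replicate 2. Slc30a10, a manganese exporter, had a somatic level that rose from 0.441 ± 0.178 to 4.15 ± 0.996 CPM (SD, n = 3), with a difference of -3.12 (SE 0.56, edgeR adjusted p = 0.00777). Slc4a11, a borate and proton transporter family member, rose 2.91-fold in somatic cells. In the opposite direction, the bicarbonate carrier Slc4a5 held 1.64, 1.42 and 0.849 CPM in saline and 0.423, 0.394 and 0.297 CPM in dex somatic cells, a low level at which 11 of 12 fits without a library lost the call. The amino acid carrier Slc38a4, imprinted in mouse, rose in germ cells from a mean that was 5.12% of the somatic one, with a difference of 0.65 (SE 0.15, edgeR adjusted p = 0.0343).

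Of 30 imprinted genes tested, 5 (16.7%) were called, beside 1.62% of all genes. The count was 3 without dex somatic replicate 2, saline somatic replicate 2 or saline somatic replicate 3. Besides Cdkn1c and Slc38a4 the 5 called genes were Dlk1, Ndn and Grb10, and 4 of the 5 rose in somatic cells. Dlk1, a Notch-like ligand of stromal progenitors, held 2439, 2234 and 2264 CPM in saline and 3565, 3591 and 2947 CPM in dex somatic cells, and 43.9, 42.6 and 37.1 CPM in saline and 40.6, 37.2 and 33.8 CPM in dex germ cells. The somatic groups were separate and the germ cell groups overlapped, with a difference of -0.69 (SE 0.13, edgeR adjusted p = 0.0128). Ndn, a growth-suppressing MAGE protein, had a difference of -0.67 (SE 0.11, edgeR adjusted p = 0.00477). The list's median difference was -0.11.

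Matrix and signalling genes rose or fell singly. Spock2, a testican proteoglycan, held 54.7, 53.2 and 53.9 CPM in saline and 226, 248 and 196 CPM in dex somatic cells, beside germ cell means of 11.7 ± 2.78 CPM (saline) and 13.9 ± 1.53 CPM (dex, SD, n = 3). The difference was -1.79 (SE 0.18, edgeR adjusted p = 4.59e-05). Aspn, a collagen-binding proteoglycan, rose 4.13-fold in somatic cells, with a difference of -1.91 (SE 0.34, edgeR adjusted p = 0.00766). They were the 2 called members of 48 proteoglycan and matricellular genes (4.17%, beside 1.62% of all genes). Cnmd, which encodes chondromodulin, an inhibitor of vessel growth, went from 4.07 ± 1.02 to 30.1 ± 4.65 CPM in somatic cells (SD, n = 3), a difference of -3.37 (SE 0.52, edgeR adjusted p = 0.00287). Galnt15, an enzyme that starts mucin-type glycan chains, rose 5.18-fold.

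Cyp26b1 combined a somatic rise with lower germ cell values. It encodes an enzyme that breaks down retinoic acid, the signal for meiotic entry. Its values were 1.03, 1.05 and 1.71 CPM in saline and 0.201, 0.646 and 0.35 CPM in dex germ cells, and 14, 18.2 and 16.6 CPM in saline and 28.3, 27.8 and 25.9 CPM in dex somatic cells. The groups were separate in both cell types, but the germ cell effect did not pass (-1.65, edgeR adjusted p = 0.0671). The difference was -2.40 (SE 0.41, edgeR adjusted p = 0.00544). Cyp26b1 was the only called gene of 22 in retinoid metabolism (4.55%, beside 1.62% of all genes).

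Among the somatic rises were genes that were more abundant in germ cells than in somatic cells. Dazl, an RNA-binding protein required for germ cell development, held 1.2, 1.35 and 0.971 CPM in saline and 12.9, 12.8 and 12.6 CPM in dex somatic cells, and 1068, 1031 and 1118 CPM in saline and 1017, 943 and 986 CPM in dex germ cells. It rose 10.9-fold in somatic cells, where the level after dex was 1.3% of that in dex germ cells. The difference was -3.56 (SE 0.14, edgeR adjusted p = 1.91e-10). Lhx4, a LIM homeobox factor, held 0.503, 0.387 and 0.121 CPM in saline and 6.34, 7.43 and 4.82 CPM in dex somatic cells, and reached 123% of its dex germ cell mean.

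The 16 germ cell markers, with Dazl and Kit among them, were set beside these genes. Their summed level in the somatic libraries was 41.9 to 57 CPM in saline and 66.4 to 83.3 CPM in dex. In the germ cell libraries it was 6080 to 6767 CPM in saline and 5584 to 5842 CPM in dex. Of the somatic sum, Kit held 27.1 to 33.6 CPM in saline and 38.1 to 41.4 CPM in dex. Dazl held 0.971 to 1.35 CPM and 12.6 to 12.9 CPM of it. The sum without Kit and Dazl was not taken. Over the 16 markers the median somatic change was 0.69, with 12 of the 16 above 0 and the rest not. Dazl alone among the 16 rose in somatic cells by the test. Of the markers above 0, Ddx4, Sycp3, Stk31, Mael and Sycp1 had somatic changes of 0.66, 0.85, 0.82, 0.82 and 0.52 that did not pass (edgeR adjusted p = 0.352, 0.195, 0.265, 0.436 and 0.444). Pou5f1 was at or under 0.121 CPM in each somatic library. Mov10l1, an RNA helicase of the piRNA pathway, and Hormad1, a protein of the meiotic chromosome axis, rose in somatic cells from 0.444 ± 0.288 to 1.53 ± 0.651 CPM and from 0.48 ± 0.0899 to 1.29 ± 0.619 CPM (SD, n = 3). These levels were 0.295% and 0.244% of the dex germ cell levels, and the calls were lost in 4 and 8 of 12 fits without a library. Whether germ cell RNA in the somatic libraries contributed to Dazl, Mov10l1 and Hormad1 was not tested.

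Other genes that were more abundant in germ cells fell in somatic cells. Tcf24, a bHLH transcription factor, held 6.73, 6.51 and 7.1 CPM in saline and 0.242, 0.563 and 0.713 CPM in dex somatic cells, and 72.1 to 87.5 CPM in saline and 69.4 to 77.2 CPM in dex germ cells. Tdrd12, a Tudor domain protein of the piRNA pathway, was at or under the floor in all dex somatic libraries, at least 4.27-fold lower than in saline, with a germ cell level of 37.6 ± 2.1 CPM in saline and 38.2 ± 2.88 CPM in dex (SD, n = 3). Msh5, a meiotic mismatch repair protein, had a difference of 0.99 (SE 0.17, edgeR adjusted p = 0.00665), with a somatic fall to 0.680 of the saline mean. Its germ cell values were 113, 144 and 153 CPM in saline and 176, 182 and 198 CPM in dex, separate but not called (edgeR adjusted p = 0.0671). In the list of 30 meiotic recombination genes Msh5 was the only one called (3.33%, beside 1.62% of all genes).

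**Figure D3:**
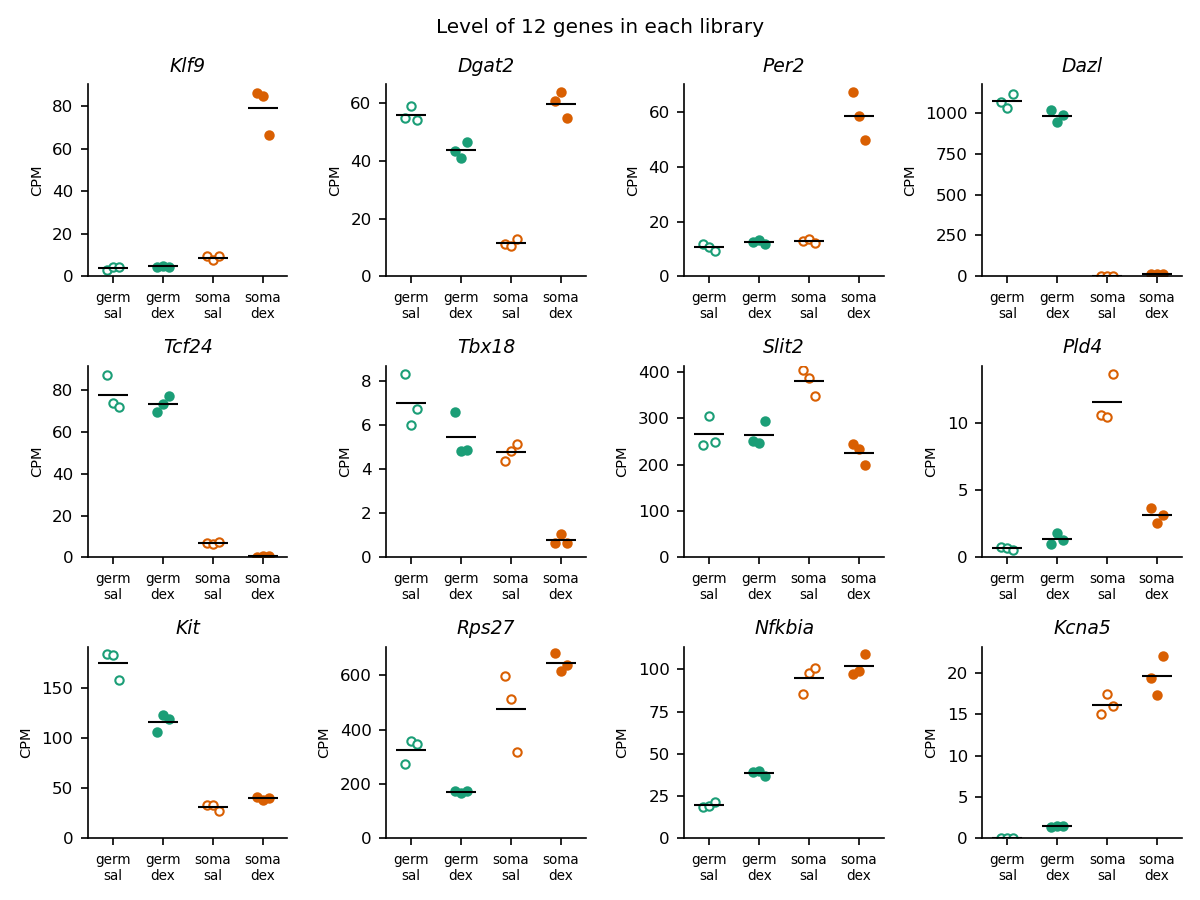
Level in CPM, on a linear axis from 0, of 12 called genes in each of the 12 libraries; open circles are saline, filled circles dex, green germ cells, orange somatic cells, and lines the group means. Klf9, Dgat2, Per2, Dazl, Tcf24, Tbx18, Slit2 and Pld4 are somatic-side genes, and Kit, Rps27, Nfkbia and Kcna5 germ cell-side genes. Somatic Dazl, at 0.971 to 12.9 CPM, lies close to 0 beside 943 CPM or more in germ cells.

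The 54 somatic-side genes that fell included developmental regulators. Tbx18 (chromosome 9, 87702800 to 87731260), a T-box factor of gonadal and urogenital mesenchyme, held 4.4, 4.84 and 5.16 CPM in saline and 0.664, 1.07 and 0.654 CPM in dex somatic cells. Its germ cell values overlapped, from 6 to 8.34 CPM in saline and 4.85 to 6.63 CPM in dex, and the difference was 2.21 (SE 0.36, edgeR adjusted p = 0.00446). Slit2, a secreted guidance ligand, fell in somatic cells from 380 ± 28.3 to 226 ± 23.7 CPM and was at 265 ± 34.4 and 264 ± 26.2 CPM in germ cells (SD, n = 3), a difference of 0.75 (SE 0.14, edgeR adjusted p = 0.0124). The WNT receptor Fzd8, the protocadherin Pcdh19 and the BMP-induced inhibitor Id4 fell by 0.55, 0.91 and 0.61 on the log2 scale in somatic cells, and their differences of 0.75, 0.80 and 0.57 were lost in 9, 6 and 11 of 12 fits without a library. The Notch ligand Jag1, chosen after its values were seen, fell in somatic cells by 0.60 on the log2 scale.

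Some receptor and channel genes fell in somatic cells. Of 152 ion channels, 4 (2.63%) were called in the difference, beside 1.62% of all genes, and 2 without saline somatic replicate 3. In somatic cells 3 ion channels rose and 3 fell by the test, beside 524 and 279 of all 19390 genes. Of the called channels, Kcnd3 rose in somatic cells (0.76) and Kcna5 was on the germ cell side. Grin3a, a glutamate receptor subunit, held 17.1, 15.9 and 18.4 CPM in saline and 10.8, 6.82 and 5.89 CPM in dex somatic cells, and 1.87 to 2.21 CPM in saline and 3.21 to 3.56 CPM in dex germ cells. The groups were separate in both cell types in opposite directions, only the somatic effect passed, and the difference was 1.91 (SE 0.32, edgeR adjusted p = 0.00506). Asic1, an acid-sensing sodium channel, fell 0.79 on the log2 scale in somatic cells. The prokineticin receptor Prokr1 fell in somatic cells by 0.91 on the log2 scale, with a difference of 2.31 (SE 0.46, edgeR adjusted p = 0.017). Its germ cell values were 0.129 to 0.466 CPM in saline and 0.711 to 0.874 CPM in dex. That germ cell change of 1.40 was the larger of the 2, started near the floor and did not pass (edgeR adjusted p = 0.186). The postsynaptic scaffold Shank1 and the acetylcholine receptor subunit Chrna7, chosen after their values were seen, had differences of 1.33 (SE 0.15, edgeR adjusted p = 0.000137) and 1.58 (SE 0.38, edgeR adjusted p = 0.044).

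Some immune genes fell in somatic cells, as did markers of macrophages. Median somatic changes were -0.02 for 50 interleukin and receptor genes and -0.06 for 55 interferon-inducible genes. They were -0.08 for 19 genes of class I histocompatibility and -0.31 for 36 chemokines and their receptors. Pld4, a phospholipase of phagocytes, held 10.6, 10.4 and 13.6 CPM in saline and 3.68, 2.53 and 3.15 CPM in dex somatic cells, and at most 1.81 CPM in germ cells, with a difference of 2.88 (SE 0.41, edgeR adjusted p = 0.00136). Il1b, the inflammatory cytokine, held 7.36, 9.35 and 8.43 CPM in saline and 1.63, 4.17 and 3.39 CPM in dex somatic cells, and rose in the germ cell mean from 1.84 to 3.74 CPM without passing (edgeR adjusted p = 0.18). The difference of Il1b was 2.47 (SE 0.41, edgeR adjusted p = 0.00477). The class I histocompatibility gene H2-D1, which has near-identical relatives, had a difference of 1.05 (SE 0.23, edgeR adjusted p = 0.0256).

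Over 38 macrophage and myeloid genes the summed level in the somatic libraries was 490 to 637 CPM in saline and 158 to 331 CPM in dex, and 59.2 to 77.7 CPM in the germ cell libraries. In somatic cells 13 of the 38 fell and none rose, beside 279 and 524 of all 19390 genes. Among the 13, Csf1r went from 45.9, 57.9 and 64.5 to 10.8, 28.8 and 28.4 CPM. In germ cells none of the 38 was called. The list's median difference was 1.16. Of its members Itgax alone was called in the difference (2.63%, beside 1.62% of all genes). In single germ cell libraries 1 to 7 of the 38 genes had no count. Itgax, which was more abundant in germ cells than in somatic cells, was at or under the floor in all dex somatic libraries and lost its call in 10 of 12 fits without a library. The part of macrophage content in the somatic values of Pld4, Il1b and H2-D1 was not tested.

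**Figure D4:**
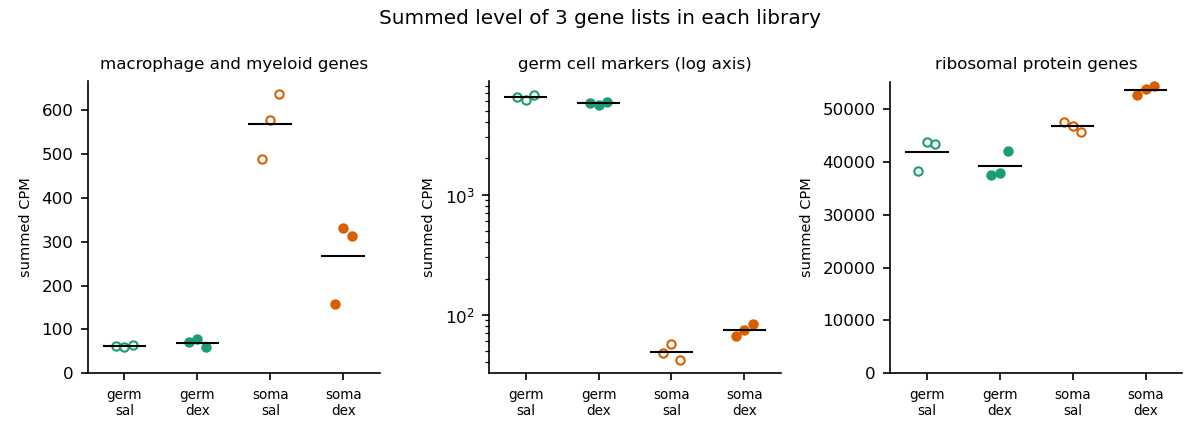
Summed CPM of 38 macrophage and myeloid genes, 16 germ cell markers and 85 cytosolic ribosomal protein genes in each library; open circles are saline, filled circles dex, and lines the group means. The germ cell marker panel has a log axis and the other panels start at 0. Macrophage genes are at 490 to 637 CPM in saline and 158 to 331 CPM in dex somatic libraries.

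On the germ cell side, 18 genes rose and 9 fell. All 18 that rose had a lower mean in saline germ cells than in saline somatic cells, and in 8 of them the germ cell mean was under 10% of the somatic one. Over all 19390 genes tested, 9755 had the higher mean in saline germ cells, and 2932 a germ cell mean under 10% of the somatic one. The saline germ cell libraries enter both this comparison of means and the dex effect. The number of germ cell-side genes was 110, 5 and 15 without dex germ cell replicates 1, 2 and 3. It was 20, 28 and 7 without saline germ cell replicates 1, 2 and 3. The pregranulosa medians of these libraries, in the same order, were 2.9%, 10.4% and 7.77% in dex and 3.84%, 5.74% and 5.66% in saline. In the germ cell libraries the stromal median was 0.824% to 1.43% in saline and 1.16% to 1.57% in dex, and the pregranulosa median 3.84% to 5.74% in saline and 2.9% to 10.4% in dex. The 16 pregranulosa markers had a median germ cell change of 0.38, with none called. Their part in the germ cell rises was not tested.

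Kcna5 (chromosome 6, 126532551 to 126535412), a voltage-gated potassium channel, was at or under the floor in all saline germ cell libraries and at 1.41, 1.49 and 1.52 CPM in dex, at least 8.16-fold higher. Its somatic values were 15, 17.4 and 16 CPM in saline and 19.4, 17.3 and 22.1 CPM in dex, and the dex germ cell mean was 7.49% of the dex somatic mean. The difference remained called in all 12 fits without a library, at 4.69 without dex germ cell replicate 2. Tnfrsf13b, a receptor of B cell survival factors, differed in kind, since the dex germ cell level of 5.56, 7.24 and 5.36 CPM was above each somatic library, the highest of which held 2.64 CPM. It had been 1.03, 0.816 and 0.686 CPM in saline germ cells.

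Signalling adaptors followed at low germ cell levels. Shc2, an adaptor of receptor tyrosine kinases, rose in germ cells from 1.22 ± 0.197 to 3.36 ± 1 CPM and was at 48.4 ± 2.24 and 42.5 ± 3.5 CPM in somatic cells (SD, n = 3), a difference of 1.66 (SE 0.27, edgeR adjusted p = 0.00398). Gmip, a GTPase-activating protein, rose 2.42-fold in germ cells, where each dex library lay above each saline library, with a difference of 1.40 (SE 0.26, edgeR adjusted p = 0.0118). The calcium-dependent transcription factor Nfatc4 had a difference of 0.88 (SE 0.16, edgeR adjusted p = 0.0089). Jph4, a protein of membrane junctions, Nrbp2, a pseudokinase, Sh3pxd2b, an adaptor of podosomes, and Ripor3 completed the germ cell rises that the naming rule gave, with differences of 1.06, 0.90, 0.79 and 1.78. The calls of Nrbp2 and Ripor3 were lost in 8 and 10 of 12 fits without a library. The ETS repressor Erf and the coactivator partner Cited2, chosen after their values were seen, also rose in germ cells from levels below the somatic ones, with differences of 0.74 (SE 0.13, edgeR adjusted p = 0.00772) and 0.49 (SE 0.11, edgeR adjusted p = 0.0281).

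The genes that fell on the germ cell side included Kit and housekeeping genes. Kit (chromosome 5, 75574916 to 75656722), the receptor tyrosine kinase for KIT ligand that supports germ cell survival and growth, held 184, 183 and 158 CPM in saline and 106, 123 and 119 CPM in dex germ cells, and 33.6, 33.3 and 27.1 CPM in saline and 41.4, 38.1 and 40 CPM in dex somatic cells. The groups were separate in opposite directions, with a germ cell fall to 0.664 of the saline mean and a somatic change just short of the threshold (0.35, edgeR adjusted p = 0.0506). The difference of -0.94 (SE 0.13, edgeR adjusted p = 0.000955) remained called in all 12 fits without a library. Kit was the only germ cell marker of 16 that fell in germ cells by the test, and the summed level of the 16 was also lower after dex there, with no overlap between treatments.

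Snrpe, a core protein of spliceosomal particles, fell in germ cells from 105 ± 10.2 to 70.6 ± 5.2 CPM (SD, n = 3). Its difference was -0.69 (SE 0.13, edgeR adjusted p = 0.0118). It was the single called gene of 70 splicing factors (1.43%, beside 1.62% of all genes). Prdx1, a peroxiredoxin, fell from 567 ± 16.4 to 428 ± 31.3 CPM, with a difference of -0.45 (SE 0.09, edgeR adjusted p = 0.0218), a call lost in 5 of 12 fits without a library and after a GC trend was removed. The translation initiation factor Eif1 and the exon junction helicase Eif4a3 had differences of -0.43 and -0.39, which were lost in 7 and 11 of 12 fits without a library and after a length trend was removed.

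The ribosomal protein genes called in the difference had opposite signs in germ and somatic cells. Of 85 tested, 54 had a somatic change above 0 with a germ cell change below 0, among them all 15 called genes, beside 4687 of all 19390 genes. Selection for a negative difference favours these signs in the 15. The median change was 0.19 for somatic cells against -0.09 for germ cells, and the median difference -0.30. Of the 15 called differences, 3 were on the somatic side, 2 on the germ cell side, and 10 had neither effect called. Ribosomal protein genes have many processed copies that can share reads, so single genes of the family are uncertain.

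Rps27 (chromosome 3, 90212522 to 90213651), a small subunit protein, held 272, 358 and 348 CPM in saline and 176, 167 and 173 CPM in dex germ cells, and 598, 515 and 319 CPM in saline and 681, 617 and 638 CPM in dex somatic cells. The dex libraries of both cell types were tight and separate from saline, while saline somatic replicate 3 was far under the other saline somatic libraries. The difference was -1.36 (SE 0.22, edgeR adjusted p = 0.00437), and -1.13 without that replicate. Rps21, Rpl39 and Rps29 followed with differences of -1.20 (SE 0.21, edgeR adjusted p = 0.00682), -1.31 (SE 0.25, edgeR adjusted p = 0.0124) and -1.28 (SE 0.25, edgeR adjusted p = 0.014). Each of the 4 remained called in all 12 fits without a library. The number of called ribosomal protein genes was 8 without saline somatic replicate 3, without saline germ cell replicate 3 or without dex germ cell replicate 2, and at most 22, without saline germ cell replicate 1.

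The called ribosomal protein genes were short, with a median gene length of 1434 nt beside 1734 nt for the whole family and 3650 nt for all genes tested. After a trend with the length of the longest annotated transcript was removed, 16 were called, and after a trend with GC content was removed, 14. That transcript length is another measure than the gene length given here. The summed level of the family in germ cells was 38373 to 43718 CPM in saline and 37567 to 42001 CPM in dex, ranges that overlap. In somatic cells it was 45771 to 47652 CPM in saline and 52647 to 54397 CPM in dex, and did not overlap. No test of the sum was made.

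**Figure D5:**
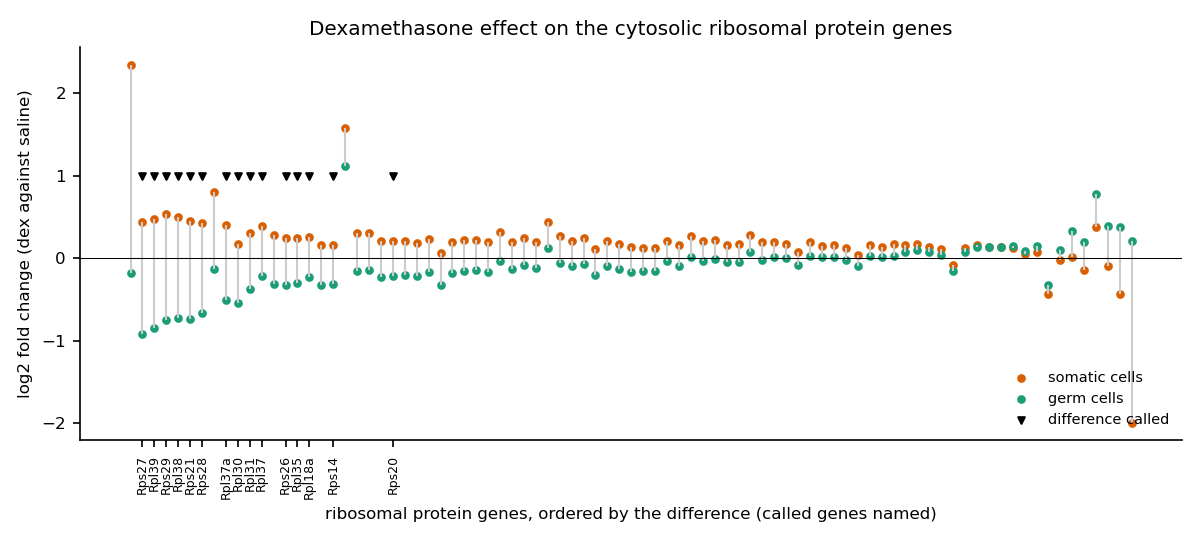
Log2 fold change of dex against saline in somatic cells (orange) and germ cells (green) for 85 cytosolic ribosomal protein genes, ordered by the difference. Triangles mark the 15 called genes, which are named on the axis. In all 15 the somatic point lies above 0 and the germ cell point below 0.

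Respiratory chain genes showed smaller shifts of the same form. Of 98 nuclear-encoded oxidative phosphorylation genes, 5 (5.1%) were called, beside 1.62% of all genes. All 5 were lower in germ cells, and the list's median difference was -0.12. The count moved by over 1.5 times in 11 of 12 fits without a library. It was 1 without dex germ cell replicate 2, saline germ cell replicates 2 or 3, dex somatic replicate 1, or saline somatic replicates 2 or 3, was 2 without dex germ cell replicate 1 or dex somatic replicate 2, was 3 without dex germ cell replicate 3 or dex somatic replicate 3, and was 8 without saline germ cell replicate 1. Cox7c, a subunit of cytochrome c oxidase, held 203, 243 and 234 CPM in saline and 157, 179 and 175 CPM in dex germ cells, and 71.6, 66.5 and 53.5 CPM in saline and 78.1, 79.7 and 76.9 CPM in dex somatic cells. Neither effect alone was called, and the difference was -0.70 (SE 0.14, edgeR adjusted p = 0.0128). Ndufb9, of complex I, and Cox6c had differences of -0.74 (SE 0.16, edgeR adjusted p = 0.0248) and -0.63 (SE 0.15, edgeR adjusted p = 0.0378), lost in 7 and 10 of 12 fits without a library. Of 12 mitochondrially encoded genes none was called.

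All 82 differences with neither effect called had opposite signs in the cell types, 59 positive in somatic cells and negative in germ cells and 23 the reverse. Requiring a called difference with neither effect called favours opposite signs, so this follows largely from the selection. The median sizes of change were 0.24 (somatic) and 0.30 (germ cell) for the 59, and 0.23 and 0.37 for the 23. The 59 genes had a median GC content of 44.7% in the longest transcript and the 23 a median of 57.2%, beside 49.3% for all genes tested. The same order was present over all called differences, with 47.2% for the 219 lower in germ cells and 55.4% for the 95 higher. After removal of a GC trend 249 genes were called, of which 220 were among the 314. Ier3, a stress-induced survival gene, and Tapbp, which loads peptides on class I molecules, were among the 23, with differences of 1.45 (SE 0.35, edgeR adjusted p = 0.0454) and 0.67 (SE 0.15, edgeR adjusted p = 0.0341), lost in 10 and 9 of 12 fits without a library.

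Close to the threshold, Id4 and Rai1 were the last genes inside, at adjusted p-values of 0.0495 and 0.0499, and Nbdy and Vcan the first outside, at 0.051 and 0.0513 (edgeR).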

How the data were processed

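Poly(A) RNA-seq libraries of 12 sorted ovary samples were analysed. Read counts per gene were deposited by the authors: paired-end reads were aligned to mm10 with HISAT2 2.0.5 and counted with featureCounts 1.5.0-p3. The strand and multi-mapping settings are not given in the sources used here. FPKM values and the authors' DESeq2 1.20.0 comparisons (fold changes and p-values) were not used.

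Counts were fitted with edgeR 4.0.16 (R 4.3.3), quasi-likelihood F test, 4 group means, TMM scaling, filterByExpr, and Benjamini-Hochberg adjustment over all 19390 genes at 0.05. All contrasts came from this fit. Standard errors are those implied by the F statistic. The common biological coefficient of variation was 0.113 on 8 residual degrees of freedom. Levels are CPM with TMM-scaled totals, and floors cover counting error only. No 2 libraries agreed within sampling noise. The scripts were tested on simulated counts first.

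Named genes were fixed genes (Fkbp5, Tsc22d3, Per1, Zbtb16, Klf9, Nr3c1, Clock, Pou5f1, Dazl), the 10 largest called differences per side and direction with a mean of at least 1 CPM, both-sided genes, and the 3 largest per list. Other genes named were chosen after their values were seen. The members, lists and tests were chosen with earlier results of these data known. Promoters came from RefSeq (GRCm38.p6). Gene coordinates are those of the deposited table. Some genes that the rule gave are not reported here.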

Additional observations from a re-analysis of the deposited data

Results flagged for a closer look

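The dex response differed between germ and somatic cells, by the test of the difference itself, in 314 genes (edgeR quasi-likelihood test, adjusted p of at most 0.05). Among the genes fixed for naming, the differences were -0.97 for Fkbp5, -1.13 for Tsc22d3, -3.99 for Zbtb16, -2.95 for Klf9 and -3.56 for Dazl, each lower in germ cells. With 3 libraries per group, single libraries were not screened for outlying values.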

How the results depend on the processing

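Counts depended on the tool and filter. DESeq2 1.42.0, run on 36214 genes with its own independent filtering, so that tool and filter changed together, called 620 differences (210 higher in germ cells, 410 lower), 323 on the somatic and 112 on the germ cell side, and 273 germ cell dex effects, and 310 of the 314 were among its calls. Without a low-count filter edgeR called 727 (351 higher, 376 lower), 351 somatic-side, 177 germ cell-side, and 1277 somatic and 498 germ cell dex effects. Within 6 libraries of a cell type, 1354 somatic and 35 germ cell effects were called, and the germ cell side held 15 genes. Defined by size, the germ cell side held 42. RLE scaling, a filter for expression in both cell types, the replicate block, and GC and length trends, the last 2 added after seeing the data, kept the totals, both directions, both sides and both dex effects within 1.5 times. Among the lists, translation factors went from 3 called genes to 1 with the length trend removed. Same-numbered, same-treatment germ cell and somatic libraries had deviations correlated at 0.068 to 0.107. As not all were over 0.1, the numbers were not taken as pairs. Every library nevertheless correlated best with its own number among same-treatment libraries of the other cell type. There different numbers correlated negatively, which follows largely from taking deviations from the group mean and adds no information. The best match is a hint from the data only, and pairs remain possible. The replicate block called 313 genes, 284 of them among the 314. A block by pool called 222, 202 of them among the 314, and lost Jph4 and Prokr1 among others (edgeR adjusted p = 0.0568 and 0.0506). Leaving out single libraries gave 143 to 383 differences, 41 to 204 higher, 102 to 218 lower, 102 to 191 somatic-side, 5 to 110 germ cell-side, 439 to 951 somatic and 13 to 241 germ cell effects. The total moved by over 1.5 times without dex germ cell replicates 2 (178) and 3 (188), saline germ cell replicate 3 (167), dex somatic replicates 1 (200) and 2 (182), and saline somatic replicates 2 (167) and 3 (143). The germ cell side moved without dex germ cell replicates 1 (110), 2 (5) and 3 (15), saline germ cell replicate 3 (7), dex somatic replicate 1 (16) and saline somatic replicates 1 (16) and 2 (12). The somatic side moved without dex germ cell replicates 2 (135) and 3 (129), saline germ cell replicate 3 (127), dex somatic replicate 2 (120) and saline somatic replicates 2 (114) and 3 (102). Germ cell effects moved without dex germ cell replicates 1 (241), 2 (13) and 3 (35), saline germ cell replicates 1 (34) and 3 (19) and saline somatic replicate 2 (40), and somatic effects without dex somatic replicate 2 (485) and saline somatic replicates 2 (454) and 3 (439). The cause was not tested. Of 79 called genes named by the rule, 46 remained called in every fit and none changed sign. With 3 libraries per group, an uncalled difference is bounded only by its standard error.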
